A study of Mus musculus with 6 samples.

Results

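The 10 genes Axl, Mertk, Vcam1, Cd5l, Mrc1, Marco, Fcna, C1qa, C1qb and C1qc encode receptors, secreted pattern-recognition proteins and complement chains with which macrophages recognise and take up dying cells, particles and blood-borne debris. They were taken by symbol from a table of 14788 gene symbols, in which all 10 were found. All 10 had counts in every library and passed the filter on low counts, which left 11504 genes to test. The libraries were made from splenic type-2 conventional dendritic cells (cDC2s), antigen-presenting cells that are distinct from macrophages, of C57BL/6 mice. Of the 6 libraries, 3 were wild-type (WT) and 3 were Arhgef1-/-, called the knockout here. The libraries are written WT 1 to WT 3 and KO 1 to KO 3, after the numbers in their titles. The protein encoded by Arhgef1 is an exchange factor that switches on the GTPase RhoA. The labels do not name the part of the gene that was deleted, the age of the mice or the sort gates, and nothing says that replicates were separate animals, so the p-values rest on a spread that may be technical.

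In the spleen, macrophages of the red pulp engulf aged red cells, and macrophages of the marginal zone trap particles from the blood. The receptor tyrosine kinases Axl and Mertk bind phosphatidylserine on dying cells through the bridging proteins Gas6 and protein S. C1q, assembled from A, B and C chains, starts the classical complement pathway and coats dying cells, and ficolins such as the Fcna product bind sugars on microbial surfaces and can start the lectin pathway. Axl is known in dendritic cells too, so that not each of the 10 genes is restricted to macrophages.

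Total counts per library ran from 8408325 to 11714365. All WT libraries came from lane 1 and all knockout libraries from lane 2 of differently named runs, per the labels, so lane and genotype cannot be told apart. The targeted gene Arhgef1 stood at 284 ± 35.6 CPM (counts scaled to library size) in WT against 129 ± 14.8 CPM in knockout libraries (SD, n = 3 per genotype), or 45.5% of WT (edgeR adjusted p = 6.96e-06). The cDC2 genes Itgax and Irf4 were abundant in all libraries. Itgax, which encodes CD11c, averaged 1410 CPM in WT against 1260 CPM in knockout libraries, and the transcription factor gene Irf4 averaged 425 and 429 CPM. Other cDC2 genes changed: of 14 tested in a cDC2 list, 4 fell and 1 rose (4.58% and 5.09% of all tested genes). Cd209a fell from 234 ± 12.3 to 77.6 ± 0.964 CPM (log2 fold change -1.59 ± 0.10, SE, edgeR adjusted p = 3.79e-08). The label of the 10 genes as macrophage genes describes what they are known for, not the cells that were sorted.

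The promoters of 8 of the 10 genes were found in RefSeq (GRCm38.p6, the assembly of mm10), from 250 bases before to 50 bases after the start site. The promoters of Mertk and Cd5l, whose genes also fell, and that of Marco are not shown. The Mertk promoter is without the motif marked below. The following 5 are shown as examples from genes of the receptor, lectin and complement branches that fell in the knockout. They are written 5′ to 3′ on the strand of the gene, with capitals marking GAGGAA on either strand, the core of a purine-rich box bound by ETS factors of the PU.1 and Spi-C kind.
Axl, chr7:25788684-25788983, minus strand: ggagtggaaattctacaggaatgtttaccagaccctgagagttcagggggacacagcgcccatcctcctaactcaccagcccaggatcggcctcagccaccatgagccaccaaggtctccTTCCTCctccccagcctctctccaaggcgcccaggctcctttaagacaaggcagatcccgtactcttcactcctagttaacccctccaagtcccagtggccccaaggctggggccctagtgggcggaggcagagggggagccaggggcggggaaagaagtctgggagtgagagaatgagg
Mrc1, chr2:14229164-14229463, plus strand: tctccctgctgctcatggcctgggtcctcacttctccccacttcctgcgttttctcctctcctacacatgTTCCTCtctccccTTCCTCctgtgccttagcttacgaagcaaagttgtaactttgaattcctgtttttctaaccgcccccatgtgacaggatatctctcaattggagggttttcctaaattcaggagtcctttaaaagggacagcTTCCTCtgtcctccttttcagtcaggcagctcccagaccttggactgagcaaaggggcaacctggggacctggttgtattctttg
Fcna, chr2:25627925-25628224, minus strand: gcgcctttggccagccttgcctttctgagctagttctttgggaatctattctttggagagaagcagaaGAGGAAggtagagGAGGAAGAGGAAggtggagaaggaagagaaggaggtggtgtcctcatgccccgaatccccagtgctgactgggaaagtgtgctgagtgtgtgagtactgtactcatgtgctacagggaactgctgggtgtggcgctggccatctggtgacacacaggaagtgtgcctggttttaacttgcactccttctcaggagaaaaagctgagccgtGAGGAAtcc
C1qb, chr4:136886151-136886450, minus strand: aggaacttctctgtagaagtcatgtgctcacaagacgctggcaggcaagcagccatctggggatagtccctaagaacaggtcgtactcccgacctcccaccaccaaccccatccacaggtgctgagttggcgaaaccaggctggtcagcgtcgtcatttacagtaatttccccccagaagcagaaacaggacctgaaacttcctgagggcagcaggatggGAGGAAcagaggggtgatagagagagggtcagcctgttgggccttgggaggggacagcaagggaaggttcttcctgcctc
C1qc, chr4:136892865-136893164, minus strand: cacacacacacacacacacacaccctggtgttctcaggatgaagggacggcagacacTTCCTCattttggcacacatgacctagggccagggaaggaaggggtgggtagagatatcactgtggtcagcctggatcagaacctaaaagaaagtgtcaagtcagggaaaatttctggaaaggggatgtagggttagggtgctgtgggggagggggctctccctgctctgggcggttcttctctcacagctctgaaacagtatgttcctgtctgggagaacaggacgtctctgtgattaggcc
GAGGAA occurred on either strand in 7 of the 8 promoters, all but that of Mertk, and in 28.3% of all 32851 promoters of the same length in the table. The Fcna promoter held 4 matches, 2 of which adjoin, and the Mrc1 promoter held 3. The MAF recognition core TGCTGA was found in 3 of the 8 promoters and in 19.5% of all, and the nuclear receptor core AGGTCA in 1 (C1qc) and in 16.3% of all. TATAAA (13.6% of all) had no match in the 8 windows. These motifs were searched on both strands without a test, and a match describes letters only.

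In the knockout 9 of the 10 genes fell and Marco did not pass the test, while 4.58% of all tested genes were called lower and 5.09% higher. Their median log2 fold change was -1.87, against 0.00 over all genes tested. The same 9 genes had all 3 knockout values below all 3 WT values, which was so for 13.5% of all tested genes. Together the 10 genes took 0.0708%, 0.0490% and 0.0354% of all counts in WT 1 to 3, and 0.0237%, 0.0104% and 0.0106% in KO 1 to 3. In bulk samples such as these, fewer cells of a type and less RNA per cell cannot be told apart. Without WT 1 the number of the 10 that fell was 6, because Mertk, Fcna and C1qa lost their calls, and 2.25% of tested genes were called lower. Without KO 2 or KO 3 it was 7, because Fcna and C1qa lost theirs, with 2.64% and 3.25% of tested genes called lower.

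**Figure D1:**
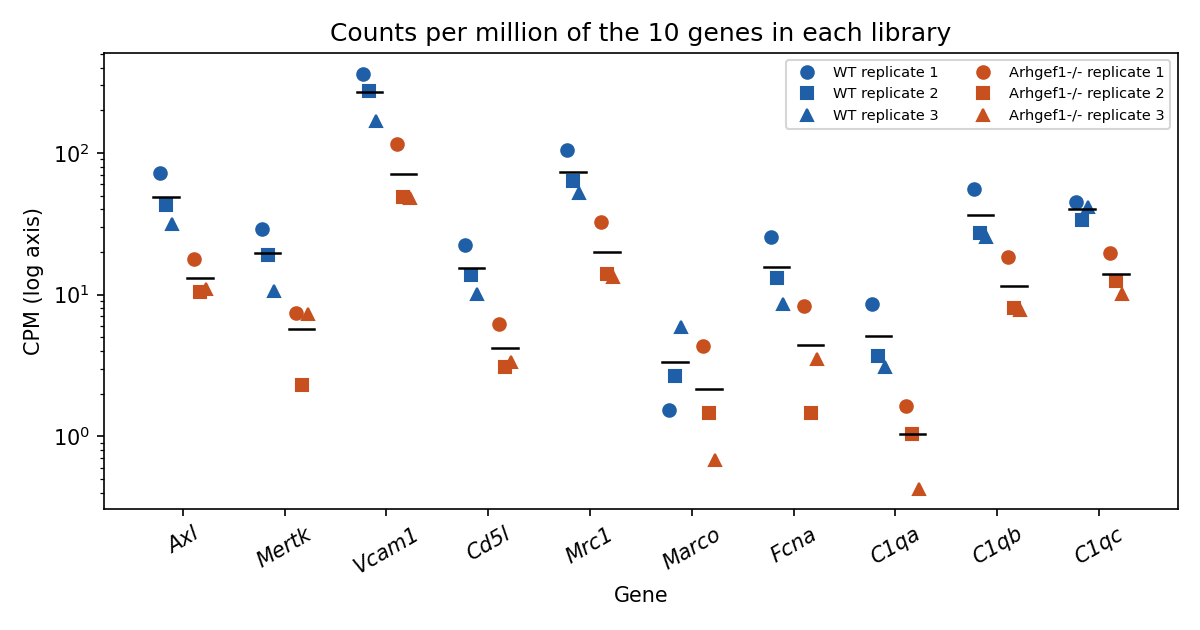
CPM (log axis) of the 10 genes in each library, blue for WT and orange for Arhgef1-/-, with a symbol for each replicate number and a black line at the group mean (n = 3). The groups do not overlap for 9 genes, and for Marco they do.

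Of the phosphatidylserine-sensing receptor kinases, Axl (mm10 chromosome 7, 25757273 to 25788705, minus strand, 20 exons) stood at 72.0, 42.8 and 31.5 CPM in WT 1 to 3 and at 17.9, 10.4 and 10.9 CPM in the knockout. All WT libraries lay above all knockout libraries, although WT 1 was 2.29 times as high as WT 3. The log2 fold change was -1.91 ± 0.27 (SE; edgeR adjusted p = 1.77e-04). Mertk (chromosome 2, 128698956 to 128802894, plus strand) stood at 29.0, 18.9 and 10.6 CPM in WT and at 7.45, 2.28 and 7.33 CPM in the knockout. Its lowest WT library was close to its highest knockout library, and KO 2 was the lowest. The log2 fold change was -1.78 ± 0.40 (adjusted p = 0.00770), and it was -1.37 without WT 1, where the call was lost. An antisense gene overlaps Mertk in GENCODE, and without a stated strand setting the reads of such a pair cannot be told apart.

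Axl lies on the same chromosome as Arhgef1, with 831 kb between the genes, and the other 9 genes lie on chromosomes 1, 2, 3 and 4. Of 21 tested protein-coding genes between Arhgef1 and Axl, 4 were higher and 2 lower. Both shares were larger than those over all tested genes (5.09% higher and 4.58% lower). Whether the neighbourhood of the targeted gene bears on Axl was not tested.

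Vcam1, a cell surface adhesion protein that binds the integrin of Itga4 and Itgb1 and is a known marker of red pulp macrophages, was the most abundant of the 10. It was measured at 362, 274 and 168 CPM in WT and at 115, 49.1 and 48.0 CPM in the knockout (chromosome 3, 116109949 to 116129688, minus strand, with an overlapping antisense gene). The groups did not overlap, and KO 1 lay nearest to WT. Its log2 fold change was -1.93 ± 0.27 (adjusted p = 1.77e-04). Scaled by exon length, so that genes can be compared, the level of Vcam1 was 53.8 ± 19.5 CPM per kb in WT and 14.2 ± 7.70 CPM per kb in the knockout. Next in WT came C1qc (33.3 ± 4.97) and C1qb (33.2 ± 15.6), which did not differ beyond their spread, then Mrc1 (13.6 ± 5.10), Axl (11.4 ± 4.88) and Fcna (11.4 ± 6.30), all in CPM per kb. Cd5l (7.55 ± 3.05), C1qa (4.90 ± 2.88) and Mertk (4.53 ± 2.14) followed within 1 SD of each other, and Marco was lowest (1.75 ± 1.18 CPM per kb). In the knockout the lowest level per kb was that of C1qa (0.989 ± 0.579), beside Marco (1.12 ± 0.993) and Mertk (1.32 ± 0.686), again within 1 SD.

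Among the scavenger and lectin genes, Mrc1, which encodes the mannose receptor CD206 (chromosome 2, 14229392 to 14332057, plus strand), stood at 104, 62.9 and 52.0 CPM in WT and at 32.7, 14.0 and 13.4 CPM in the knockout. The groups were apart, with KO 1 again nearest to WT. The log2 fold change was -1.88 ± 0.29 (adjusted p = 3.47e-04). Cd5l, a secreted scavenger-receptor-domain protein also called AIM (chromosome 3, 87357881 to 87371073, plus strand), stood at 22.2, 13.8 and 10.1 CPM in WT and at 6.17, 3.10 and 3.33 CPM in the knockout. Its groups did not overlap, and the log2 fold change was -1.89 ± 0.36 (adjusted p = 0.00248). Fcna, which encodes ficolin A (chromosome 2, 25624666 to 25628030, minus strand), had 264, 113 and 73 counts in WT and 71, 14 and 41 in the knockout, or 8.61 to 25.3 CPM against 1.45 to 8.26 CPM. WT 3 and KO 1 nearly met. The Fcna change of -1.85 ± 0.48 (adjusted p = 0.0192) lost its call without WT 1 (-1.31), KO 2 (-1.44) or KO 3 (-1.71), and with DESeq2 (-1.83). An antisense gene overlaps Fcna in GENCODE, so its reads are uncertain in the same way as those of Mertk.

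Marco, a collagen-like class A scavenger receptor known from marginal zone macrophages (chromosome 1, 120474538 to 120505024, minus strand), did not pass the test. It had 16, 23 and 50 counts in WT and 37, 14 and 8 in the knockout, or 1.53, 2.65 and 5.90 CPM against 4.31, 1.45 and 0.682 CPM. WT 3, the lowest WT library for 8 of the 10 genes, was the highest for Marco, and the groups overlapped. Its log2 fold change was -0.66 ± 0.68 (adjusted p = 0.632), and it was 0.02 without WT 3. Its SE was the widest of the 10, and whether its change differed from those of the other 9 was not tested.

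The C1q genes lie together within 18.7 kb of chromosome 4 on the minus strand, C1qb from 136880129 to 136886187, C1qc from 136889804 to 136893065 and C1qa from 136895917 to 136898803, each with 3 exons. C1qb stood at 55.7, 27.1 and 25.6 CPM in WT and at 18.5, 8.07 and 7.76 CPM in the knockout. C1qc stood at 45.2, 33.5 and 41.5 CPM in WT and at 19.7, 12.4 and 10.1 CPM in the knockout. For both chains all WT libraries lay above all knockout libraries, and C1qc varied least among the WT libraries, its highest value being 1.35 times its lowest. The log2 fold changes were -1.68 ± 0.33 for C1qb (adjusted p = 0.00294) and -1.52 ± 0.23 for C1qc (adjusted p = 2.89e-04). C1qa had 89, 32 and 26 counts in WT and 14, 10 and 5 in the knockout, or 8.53, 3.68 and 3.07 CPM against 1.63, 1.03 and 0.426 CPM. Its change was -2.33 ± 0.62 (adjusted p = 0.0230), and the call was lost without WT 1 (-1.72), KO 2 (-2.36) or KO 3 (-1.94). The count ratios of the chains varied between libraries. There were 1.23, 0.808 and 0.616 C1qb counts for each C1qc count in WT 1 to 3 and 0.941, 0.650 and 0.771 in the knockout, so that the groups overlapped. The ratio of C1qa to C1qc was 0.189, 0.110 and 0.0739 in WT and 0.0828, 0.0833 and 0.0424 in the knockout, also overlapping.

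Most of the 10 genes varied together from library to library within each genotype. In WT, Marco had the reverse order and C1qc a range of only 0.43 on the log2 scale. WT 1 was the highest WT library for 9 genes, all but Marco, and KO 1 the highest knockout library for all 10. Over all tested genes, WT 1 was the highest WT library for 33.9% and KO 1 the highest knockout library for 32.3%. WT 3 was lowest for 8 genes (34.9% of all tested genes), and 8 genes had the complete order of WT 1 over WT 2 over WT 3 (18.6% of all). The genes share the libraries, so these counts are not independent observations. The mean log2 CPM of the 10 genes was 5.06, 4.46 and 4.24 in WT 1 to 3 and 3.64, 2.44 and 2.50 in the knockout, a difference of group means of -1.73. The distance between WT 3 and KO 1 was thus smaller than that between KO 1 and KO 2. The median range among the 3 WT libraries was 1.15 on the log2 scale for the 10 genes and 0.36 for all tested genes, and among the knockout libraries 1.27 and 0.42. Total counts had the order WT 1, WT 2, WT 3 among the WT libraries too, from 10702215 over 8724642 to 8546267, whereas in the knockout KO 1 had the fewest (8408325) and KO 3 the most (11714365). The part of depth in this order was not tested.

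**Figure D2:**
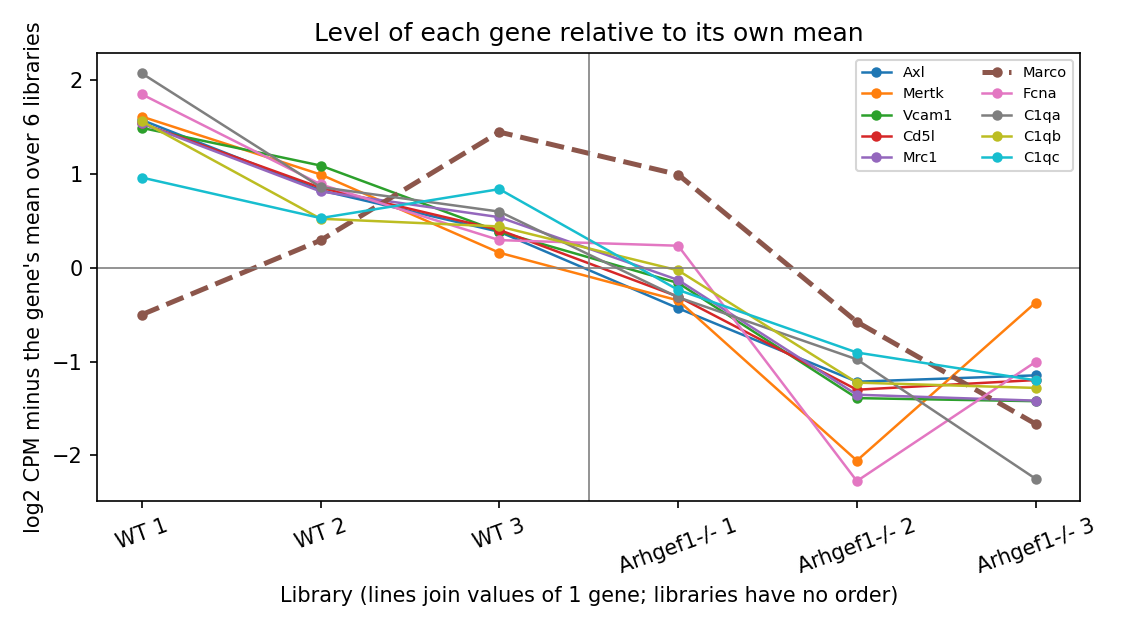
log2 CPM of each gene minus its own mean over the 6 libraries, with lines joining the values of 1 gene and a vertical line between the genotypes. For 9 genes WT 1 is the highest library, while Marco (dashed) is highest in WT 3.

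The genes whose levels over the 6 libraries were most like the average of the 10, by the root mean square difference of centred log2 CPM, were Maf (0.096), which encodes a macrophage transcription factor, and the heme oxygenase gene Hmox1 (0.169). Among those that followed were Ptgs1 (0.281), H2-M2 (0.283), the integrin gene Itga9 (0.297), Abcc3 (0.300), the iron exporter gene Slc40a1 (0.322), Slc16a9 (0.333), the growth factor gene Igf1 (0.334), Hepacam2 (0.335) and Slc4a10 (0.336). The median difference over 10074 genes was 1.01 and the 1st percentile 0.55. For the 10 genes themselves the difference from their own average ran from 0.11 for Mrc1 to 0.98 for Marco, with 0.13 for Cd5l, 0.14 for C1qb and 0.19 for both Axl and Vcam1. The measure includes the genotype difference, so genes close to the average had to be lower on average in the knockout. Hepacam2 (edgeR adjusted p = 0.194) and Slc4a10 (0.0556) did not pass the test with all libraries. Ptgs1, Abcc3 and Slc16a9 each lost their calls without WT 1, KO 2 or KO 3, and also without a further WT library. Maf stood at 24.2, 15.0 and 14.2 CPM in WT and at 7.80, 3.62 and 4.26 CPM in the knockout, with the groups apart.

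The comparison with 20 other tested macrophage genes, none of them among the 10, showed how far the group moved with markers of that lineage. Of the 20 genes, 11 fell and 9 did not pass, the median log2 fold change being -1.25, and the list had been assembled with earlier results of these data known. Those that fell included Emr1, Spic, Hmox1, Slc40a1, Trf, Hpgd, Nr1h3, Apoe, Cd209b and Adam23, while 4.58% of all tested genes were called lower. The log2 fold change was below 0 for 17 of the 20. It was above 0 for Cd68 (0.11 ± 0.09, SE), Lgmn (0.17 ± 0.18) and Il18bp (0.18 ± 0.27), which did not pass. The list summed to 2380 to 2420 CPM in WT against 1550 to 1720 CPM in the knockout, most of it from Adam23 (1420 ± 72.5 CPM in WT), Emr1 (247 ± 6.24) and Cd68 (231 ± 6.48), which are also abundant in these cDC2 libraries. Of its 17 genes at no more than 100 CPM on average in WT, 9 fell. In this list WT 1 was the highest WT library for 13 of 20 genes (33.9% of all tested genes) and KO 1 the highest knockout library for 12 of 20 (32.3% of all). WT 3 was the lowest WT library for 8 of 20, near the 34.9% of all tested genes. Vsig4, a complement receptor gene of tissue macrophages, was too low to test, with 10, 4 and 4 counts in WT and 0 in each knockout library, which allows up to 3 counts. The part of these markers in the change of the 10 genes was not tested.

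**Figure D3:**
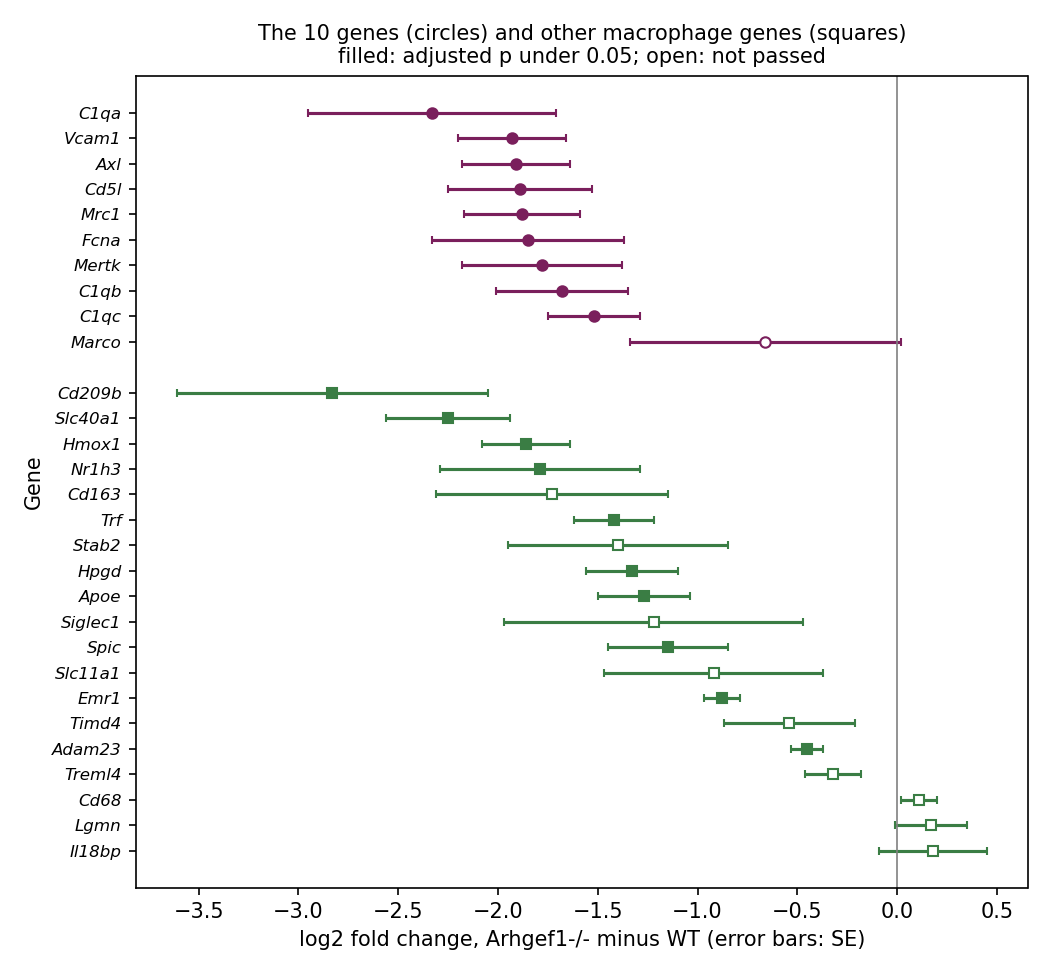
log2 fold change of the knockout against WT with its SE for the 10 genes (circles) and for 19 of the 20 other macrophage genes (squares), filled where the adjusted p was under 0.05. All 10 circles lie below 0 and 9 are filled, and 16 of the 19 squares lie below 0 and 10 are filled.

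The mean of the 10 genes minus the mean of the 20 others was 0.00, -0.28 and -0.48 on the log2 CPM scale in WT 1 to 3 and -0.48, -1.16 and -0.80 in the knockout. The difference of -0.56 between the genotypes had WT 3 level with KO 1. Without Marco it was -0.67, and against the 17 less abundant genes alone it was -0.43. By gene, this relative level was lower in the knockout by 0.37 to 0.92 for 9 genes (C1qc -0.37 and C1qa -0.92 as the ends of the range) and higher by 0.44 for Marco. In an exact two-sided permutation test for each gene, p was 0.1 for Axl, Cd5l, Mrc1, C1qa and C1qc, the smallest that 3 against 3 libraries can give, and from 0.2 (Vcam1) to 0.6 (Marco) for the others. After Benjamini-Hochberg adjustment over the 10 tests the lowest value was 0.2. None of the 10 tests therefore passed 0.05, which 3 against 3 libraries cannot reach.

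**Figure D4:**
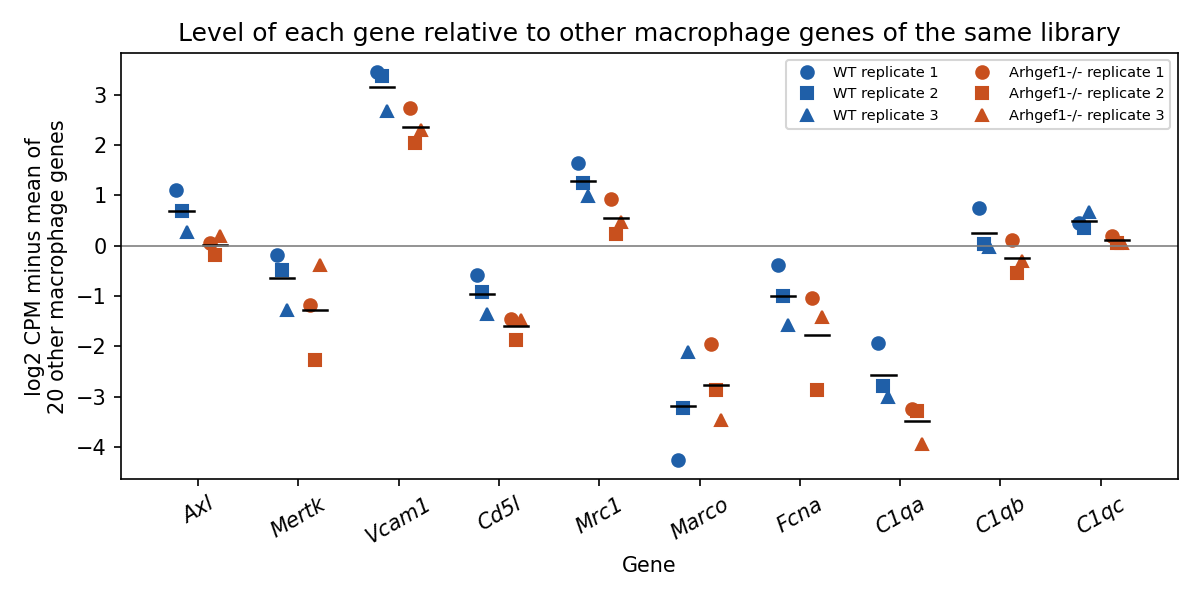
log2 CPM of each gene minus the mean log2 CPM of 20 other macrophage genes in the same library, with symbols for replicates and a black line at the group mean (n = 3). The groups meet or overlap for Mertk, Marco, Fcna, Vcam1 and C1qb, and lie apart for Axl, Cd5l, Mrc1, C1qa and C1qc.

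Marco shared its library order with Cd209b, another gene known from marginal zone macrophages, which was singled out after its values were seen. Cd209b had 31, 44 and 57 counts in WT 1 to 3 and 13, 6 and 0 in the knockout, or 2.97, 5.07 and 6.72 CPM against 1.51, 0.621 and 0 CPM. As for Marco, WT 3 was the highest WT library and WT 1 the lowest, and KO 1 was the highest knockout library and KO 3 the lowest. Emr1, of the 20 macrophage genes, had the same order, at 242, 245 and 254 CPM in WT and 138, 137 and 128 CPM in the knockout. The order was thus seen beyond Marco and Cd209b, although that of Emr1 rests on small differences between libraries. How many of all tested genes had this order was not counted. Cd209b fell (-2.83 ± 0.78, edgeR adjusted p = 0.0280), but the call was lost without WT 2 (-2.80), WT 3 (-2.53), KO 2 (-2.78) or KO 3 (-2.20). Whether reads were shared among the related Cd209 genes was not checked. Siglec1, the CD169 gene of marginal metallophilic macrophages, followed the majority instead, with 3.26, 1.50 and 0.826 CPM in WT and 1.51, 0.517 and 0.426 CPM in the knockout (-1.22 ± 0.75, adjusted p = 0.367).

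Most other genes of dying-cell uptake did not pass the test, as was so for most tested genes of any kind. In a list of bridging proteins, receptors and engulfment genes without the 10, 2 of 25 tested genes fell and 23 did not pass. Their median log2 fold change was -0.10. Over all tested genes 4.58% were called lower and 5.09% higher, and these shares also belong beside the list counts that follow. At an unadjusted edgeR p under 0.05 there were 11 of the 25, 6 higher and 5 lower. All knockout values lay above all WT values for 6 of the 25 (13.7% of all tested genes) and below them for 3 (13.5% of all). The members that fell were the lipid transporter gene Abca1, from 11.4 ± 3.68 to 4.70 ± 0.614 CPM (-1.28 ± 0.33, adjusted p = 0.0213), and Cd300lf, a phosphatidylserine-binding receptor gene, from 234 ± 19.5 to 170 ± 12.6 CPM (-0.46 ± 0.10, adjusted p = 0.00494). Both lost their calls without WT 1 (-0.98 and -0.39), and Abca1 also without KO 2 (-1.20) or KO 3 (-1.26). Without KO 1 the list had 4 that fell. The bridging protein genes were low: Gas6 had at most 2 counts in a library, Pros1 stood at 5.17, 2.65 and 0.944 CPM in WT and at 3.72, 2.28 and 4.43 CPM in the knockout (0.24 ± 0.58, adjusted p = 0.862). Mfge8, whose product bridges phosphatidylserine to integrins, stood at 2.39, 1.27 and 2.71 CPM in WT and at 3.61, 4.86 and 4.18 CPM in the knockout. All its knockout values were above all WT values, as for 13.7% of tested genes, and the change did not pass the test (0.98 ± 0.51, adjusted p = 0.267). The phosphatidylserine receptor gene Timd4 did not pass (-0.54 ± 0.33, adjusted p = 0.350). Tyro3, the remaining receptor kinase of the Axl and Mertk family, was not analysed here.

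Among 15 other scavenger and opsonic lectin genes 3 fell and 12 did not pass, with a median of -0.17. These were Cd209b, the beta-glucan receptor gene Clec7a (-0.65 ± 0.15, adjusted p = 0.00977) and the lysosomal receptor gene Scarb2 (-0.58 ± 0.18, adjusted p = 0.0454). Cd209b was already counted among the 20 macrophage genes. The number of genes that fell was 1 without WT 2, 0 without WT 3, 0 without KO 2, 1 without KO 3 and 5 without KO 1, where edgeR with all libraries had 6 at an unadjusted p under 0.05, DESeq2 called 4 and limma-voom 4. Clec7a lost its call without WT 3 (-0.53) or KO 2 (-0.56), and Scarb2 lost its own with any single library other than KO 1 left out and with total counts without TMM (-0.54). The class A scavenger receptor gene Msr1 (-0.06 ± 0.78, adjusted p = 0.978) and Cd36 (-0.11 ± 0.43, adjusted p = 0.921) did not pass, with wide errors. Stab2, a clearance receptor gene, stood at -1.40 ± 0.55 (adjusted p = 0.129).

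In the complement list without C1q, 2 of 15 tested genes fell and 13 did not pass, with a median of -0.32, and 12 more were too low to test. C6, a component of the membrane attack complex, stood at 12.7, 5.07 and 5.78 CPM in WT and at 2.68, 0.724 and 1.28 CPM in the knockout (-2.35 ± 0.53, adjusted p = 0.00868). Gpr77, the gene of the second C5a receptor, stood at 12.9, 14.5 and 16.0 CPM in WT and at 5.01, 8.48 and 2.13 CPM in the knockout (-1.49 ± 0.38, adjusted p = 0.0186). For both the groups did not overlap. C6 lost its call without WT 1 (-1.80), and Gpr77 without WT 2 (-1.48), WT 3 (-1.40) or KO 3 (-1.09), so that 1 gene of the list fell without WT 1, WT 2 or KO 3. The protease gene C1ra, whose product acts next to C1q, had at most 3 counts in a library, and the central component C3 stood at 23.7 ± 6.49 CPM in WT against 14.4 ± 4.79 CPM in the knockout (-0.72 ± 0.26, adjusted p = 0.0981).

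Of the integrin and endothelial adhesion genes set beside Vcam1, edgeR called 0 of 7, with 2 at an unadjusted p under 0.05, and DESeq2 and limma-voom called 0. Itga4, which encodes the main ligand chain of Vcam1, stood at 2570 ± 35.4 CPM in WT against 2330 ± 135 CPM in the knockout (-0.14 ± 0.06, adjusted p = 0.207), and Itgb1 at 216 ± 17.0 and 222 ± 10.9 CPM (0.04 ± 0.09, adjusted p = 0.856). The adhesion gene Icam1 stood at 153 ± 8.38 and 150 ± 19.2 CPM (-0.03 ± 0.11, adjusted p = 0.909).

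Several macrophage transcription factor genes fell with the 10. Of 11 tested, 4 fell, 1 rose and 6 did not pass, with a median of -1.15. The gene lists overlap, so their counts are not separate results. Spic and Nr1h3, for example, were already counted among the 20 macrophage genes. Maf went from 17.8 ± 5.60 to 5.23 ± 2.25 CPM (-1.78 ± 0.33, adjusted p = 0.00200). Spic, the ETS factor gene of red pulp macrophages, went from 16.6 ± 3.94 to 7.49 ± 2.34 CPM (-1.15 ± 0.30, adjusted p = 0.0192), and Nr1h3, the gene of the nuclear receptor LXR alpha, from 7.48 ± 2.30 to 2.18 ± 1.35 CPM (-1.79 ± 0.50, adjusted p = 0.0294). Bhlhe40, a factor gene active in many activated immune cells, rose from 284 ± 7.39 to 425 ± 61.0 CPM (0.58 ± 0.10, adjusted p = 8.73e-04). Spic lost its call without WT 1 (-0.99), WT 2 (-1.12), KO 2 (-0.97) or KO 3 (-1.11). Nr1h3 lost its call without WT 1 (-1.73), WT 3 (-1.58), KO 1 (-1.73) or KO 3 (-1.40). The number that fell was therefore 2 without WT 1 and 2 without KO 3.

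Mertk and Cd5l are known targets of LXR, so the LXR pathway was set beside them. Of 13 tested genes 4 fell (Nr1h3, Abca1, Mylip and Apoe), 2 rose (Scd2 and Pltp) and 7 did not pass, with a median of -0.10. Nr1h3 and Apoe were already counted among the 20 macrophage genes, and Abca1 among the genes of dying-cell uptake. Apoe, the lipoprotein gene, stood at 63.9, 47.3 and 48.5 CPM in WT and at 22.0, 31.1 and 13.2 CPM in the knockout, with the groups apart (-1.27 ± 0.23, adjusted p = 0.00165). Pltp, a phospholipid transfer protein gene, rose from 16.7 to 28.6 CPM (0.78 ± 0.24, adjusted p = 0.0440), and the desaturase gene Scd2 rose from 75.5 to 120 CPM (0.67 ± 0.15, adjusted p = 0.00746). Mylip, which targets the LDL receptor for degradation, fell (-0.72 ± 0.22, adjusted p = 0.0470), and its call was lost without WT 1 (-0.63), WT 2 (-0.73), WT 3 (-0.80), KO 2 (-0.75) or KO 3 (-0.55), and with total counts without TMM (-0.69). The number that fell was 1 without WT 1, 2 without KO 2 and 1 without KO 3. The number that rose was 0 without KO 2, where both Scd2 (0.49) and Pltp (0.52) lost their calls, and 1 without WT 1, WT 2, WT 3 or KO 3, with upper-quartile scaling or with limma-voom.

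Markers of other lineages were measured in the same libraries. In the monocyte list 3 of 12 fell: Csf1r (-0.76 ± 0.16), Lyz2 (-0.81 ± 0.21) and Plac8 (-0.43 ± 0.12), of which Lyz2 and Plac8 lost their calls without WT 1 (-0.52 and -0.40) or KO 3 (-0.56 and -0.33), Lyz2 without KO 2 (-0.85) or with DESeq2 (-0.80), and Plac8 without WT 3 (-0.38) or KO 1 (-0.43). The monocyte list summed to 1370 to 1540 CPM in WT against 1220 to 1300 CPM in the knockout. Of 11 B cell, 4 neutrophil, 2 erythroid, 2 platelet and 4 stromal or endothelial markers tested, edgeR called 0, as did DESeq2 and limma-voom. At an unadjusted edgeR p under 0.05 there were 0, 1, 0, 0 and 2. These lists had 12, 9, 5, 4 and 12 genes in the data, and those left out were too low to test. With 4.58% of all tested genes called lower and 5.09% higher, lists this short would hold few calls in any case. The B cell list summed to 433 to 507 CPM in WT against 484 to 557 CPM in the knockout, and the stromal and endothelial list to 145 to 174 and 106 to 143 CPM. Tcf7 rose in the T cell list (1 of 4), Spib rose in the plasmacytoid list (1 of 7), Klrk1 rose and Klrd1 fell in the NK list (1 each of 3), and Cadm1 fell in the cDC1 list (1 of 10). Tcf7 (0.56) and Cadm1 (-0.80) lost their calls without WT 1 and without other single libraries, and Tcf7 with limma-voom (0.61). In the cDC2 list Sirpa, Cd4, Clec4a4 and Cd209a fell, Dtx1 rose and 9 of 14 did not pass. Sirpa (-0.29) and Dtx1 (0.34) lost their calls without WT 1, Dtx1 also without KO 2 (0.31), and Clec4a4 without WT 2 (-0.38), WT 3 (-0.35), KO 1 (-0.39) or KO 3 (-0.34). Their part in the results for the 10 genes was not tested.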

How the data were processed

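RNA of 3 WT and 3 Arhgef1-/- libraries was measured by sequencing. The authors deposited raw counts of reads for each gene symbol, unnormalised, in a column for each library. STAR, HTSeq, DESeq2 and the build mm10 are named in the submitters' processing notes. Tool versions, the annotation, the strand setting and any gene filter were not given in the sources used here.

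Genotypes were compared with the test of edgeR 4.0.16 under R 4.3.3 (filterByExpr, TMM scaling, quasi-likelihood test on genotype, two-sided), with Benjamini-Hochberg adjustment over 11504 genes. A gene was called, or written as risen or fallen, at an adjusted p under 0.05. CPM use TMM-scaled library sizes, log2 CPM a prior count of 2, and SE of fold changes came from the F statistic. The procedure was tested on simulated data. Exon lengths and positions came from GENCODE vM21 (mm10).

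The 10 genes and the lists were chosen with earlier results of these data known. The genes named are the 10, Arhgef1, the 12 most like the 10, genes called in a list, and markers or pathway genes given for context. Some items that these rules name are not reported here. Alternatives were other scaling, filters, DESeq2 1.42.0, limma-voom (limma 3.58.1), 50 abundant genes or the macrophage genes left out, a replicate block, and each library left out.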

Additional observations from a re-analysis of the deposited data

How the results depend on the processing

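With each library left out in turn, the number of genes higher in the knockout ran from 310 to 583 and of genes lower from 264 to 489, against 586 and 527 with all libraries, and of the 10 genes from 6 to 9 fell. The mean difference of the 10 genes ran from -2.12 to -1.49, and their difference from the other macrophage genes from -0.73 to -0.39. Of list genes, 0 to 4 fell for efferocytosis, 0 to 5 for scavenger and lectin receptors, 1 to 3 for complement, 1 to 3 for LXR and 2 to 3 for transcription factors, and 0 to 2 rose for LXR. The log2 fold change of Marco ran from -1.65 without KO 1 to 0.02 without WT 3, where it turned. In all, 139 of 148 alternative values of the 10 genes kept direction and call.

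Among other settings, 1 efferocytosis gene was called higher with total counts without TMM and 1 with DESeq2, and 1 LXR gene was called higher with upper-quartile factors, 1 with limma-voom and 1 with the replicate block. With the replicate block 9 of the 10 genes fell, and 496 genes were higher and 449 lower, and Scarb2 (-0.58), Pltp (0.75) and Plac8 (-0.44) lost their calls. Over all tested genes, same-numbered libraries did not deviate together (correlations of 0.04, -0.03 and -0.03), so the numbers were not taken as pairs. For the 10 genes alone, WT 1 was the highest WT library for 9 and KO 1 the highest knockout library for all 10. Total counts without TMM gave 692 higher and 431 lower, and upper-quartile factors 500 and 583. Under the filter of 5 CPM in 3 libraries 8 of the 10 genes were left, and all 8 fell, with 5.96% of tested genes called lower. DESeq2 called 8 of the 10 lower, and 5.66% of all tested genes. The cause of these differences was not tested. Of the 12 genes most like the 10, 9 were also found without Marco. The low counts of Marco and C1qa limit what can be said of them.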
